A study of Mus musculus with 12 samples.

Results

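The 10 genes described here encode enzymes and receptors of the leukotriene, prostaglandin and platelet-activating factor (PAF) pathways. They were chosen by name, as the rows of the count table whose symbol is Alox15, Alox5, Alox5ap, Ltc4s, Lta4h, Ptgs1, Ptgs2, Ptgdr2, Ptafr or Ltb4r1, and all 10 were found among 39666 genes, 1 row each. Their transcripts were measured in airway eosinophils of C57BL/6 WT mice with ovalbumin-induced allergic inflammation. TREM-1+ eosinophils (6 libraries) were compared with TREM-1- eosinophils sorted from the same lavage (6 libraries). Both fractions share strain, genotype and treatment. Mice 8 to 12 weeks old were sensitized on days 0 and 7 with ovalbumin (20 µg) in alum (4 mg), were given an aerosol of 1% ovalbumin on each of days 16 to 18, and were harvested on day 19. Lavage was pooled, and the number of mice behind each of the 6 lavages is not given in the labels. Eosinophils were sorted as Siglec-F+ CD11b+ CD45+ cells of high side scatter, with low to intermediate CD11c and Ly6G. Mice without allergic inflammation were not analysed here. Trem1 encodes TREM-1, a surface receptor through which myeloid cells are activated.

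Eicosanoids are made from arachidonic acid that phospholipase A2 cuts out of membranes. Lipoxygenases turn it into leukotrienes and hydroxylated fatty acids, cyclooxygenases turn it into prostaglandin H2, and terminal synthases make the final mediators. PAF is a lipid made from the membrane remnant by an acetyltransferase. Eosinophils are known for 15-lipoxygenase products, for cysteinyl leukotrienes in human asthma, and for migrating towards prostaglandin D2 and PAF.

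Of the 10 genes, 1 was higher and 4 were lower in TREM-1+ eosinophils, set against the TREM-1- cells of their own lavage. Alox15, the lipoxygenase gene, rose by 14.0%. Ptgdr2, the gene for a prostaglandin D2 receptor, fell to 0.609 of its TREM-1- level. Alox5ap, Ptafr and Ptgs1 fell to 0.852, 0.851 and 0.828 of theirs. The other 5 genes (Alox5, Lta4h, Ltc4s, Ptgs2 and Ltb4r1) did not pass the test.

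Calls rest on edgeR's quasi-likelihood test with the lavage as a block, at a Benjamini-Hochberg adjusted p below 0.05 over the 18302 genes tested. All 10 genes passed the filter on low counts. Of all genes tested, 9.82% were called in either direction, 3.1% higher and 6.72% lower, against 5 of these 10. The median log2 fold change was -0.07 over the 10 genes and 0 over all genes, and the median absolute value was 0.23 over the 10 and 0.13 over all. The genes were named with earlier results of these data known. All 6 pairs moved in the same direction in the 5 called genes, as they did in 13.4% of all genes tested. The CPM ranges (counts scaled to a common library size) of the fractions overlapped in 10 of 10 genes, so each call rests on comparing fractions within a lavage. The groups did not overlap in 0.951% of all genes tested. Without the lavage block 0 of the 10 genes were called by edgeR, with 1 at an unadjusted p below 0.05.

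Depth was 8626701 to 19274912 counts per TREM-1+ library and 16513387 to 21234053 counts per TREM-1- library, and it was lower in TREM-1+ in 6 of 6 pairs. Trem1, which checks the sort, averaged 93.1 ± 20.0 CPM in TREM-1+ against 30.7 ± 8.12 CPM in TREM-1- libraries (SD, n = 6 each). A principal component with 28.8% of the variance set the libraries of lavages 1 and 2 against the rest. They also lay closest to each other in counts, with a chi-square per gene of 6.88 in TREM-1+ and 5.26 in TREM-1-, against at least 20.6 and 26.8 for other pairs of lavages in those fractions. Whether they are independent lavages is uncertain. The TREM-1+ library of lavage 3 stood apart on the second component. The counts of 1 higher and 4 lower were also obtained in lavages 1 and 2 alone, in lavages 3 to 6 alone and without lavages 3 and 4. In that order, these fits called 1567 of 18551, 1168 of 18651 and 1291 of 18319 genes tested. The first rests on the 2 lavages closest to each other. The eosinophil marker list was detected throughout, with a summed level of 2970 to 4290 CPM in TREM-1+ against 3440 to 4850 CPM in TREM-1- libraries, lower in TREM-1+ in 6 of 6 pairs, and 2 of its 12 genes were called higher and 7 lower.

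Markers of other cells moved with the fraction. Of 7 neutrophil markers tested, 6 were higher in TREM-1+ eosinophils and 1, Retnlg, was lower, and the summed level of the 12 listed, lower in TREM-1+ in 6 of 6 pairs, was 1040 to 1880 CPM in TREM-1+ against 1300 to 1900 CPM in TREM-1- libraries. Retnlg made up most of that sum (1244 CPM on average in TREM-1+ against 1603 CPM in TREM-1-). The 6 higher markers were S100a8 (8.72 CPM in TREM-1+, 1.70 CPM in TREM-1-), S100a9 (97.5 CPM in TREM-1+, 37.3 CPM in TREM-1-), Ngp, Ltf, Csf3r and Ly6g, each higher in 6 of 6 pairs. Ngp, Ltf, Csf3r and Ly6g averaged 46.8, 17.1, 11.2 and 5.88 CPM in TREM-1+ against 25.4, 9.06, 5.86 and 3.37 CPM in TREM-1- libraries. Elane, which neutrophil precursors transcribe, had 0 counts in every library. Of 10 T cell and innate lymphoid markers 7 were higher, with a sum of 20.3 to 144 CPM in TREM-1+ against 18.4 to 87.8 CPM in TREM-1- libraries. Levels of these markers depended on the lavage. In TREM-1+ libraries Cd3e was 0.359 and 0.279 CPM in lavages 1 and 2 against 7.55 to 15.1 CPM in lavages 3 to 6. Cd3d differed less, with 4.11 and 2.63 CPM against 5.84 to 10.7 CPM. Of 8 macrophage markers tested 1 was higher and 1 lower, with a sum of 1350 to 1720 CPM in TREM-1+ against 1210 to 1650 CPM in TREM-1- libraries. Cd68 was the higher one (8.16 CPM in TREM-1+ against 5.11 CPM in TREM-1-) and Adgre1 the lower one (875 CPM in TREM-1+ against 982 CPM in TREM-1-). Adgre1 was on average the largest part of the macrophage sum. Over the 12 libraries it averaged 929 CPM, near the eosinophil marker Ccr3 (900 CPM). How much of the Adgre1 level came from macrophages was not tested. Chil3 averaged 305 CPM in TREM-1+ against 151 CPM in TREM-1-, and Mrc1 averaged 12.2 CPM in TREM-1+ against 5.75 CPM in TREM-1-. Both were higher in 6 of 6 pairs without being called (edgeR adjusted p = 0.0877 and 0.0829). In TREM-1+ libraries Chil3 was 32.3 and 25.9 CPM in lavages 1 and 2 against 218 to 573 CPM in lavages 3 to 6. Marco, C1qa and C1qb, below the filter, averaged 0.148, 0.215 and 1.03 CPM in TREM-1+ against 0.0549, 0.212 and 0.172 CPM in TREM-1- libraries. Of 5 mast cell and basophil markers tested 1 was higher and 1 lower (sum 82.7 to 101 CPM in TREM-1+, 78.5 to 118 CPM in TREM-1-), and Mcpt4 and Tpsb2 were at 0. B cell, dendritic cell and epithelial lists summed to at most 16.1, 27.5 and 22.5 CPM in TREM-1+ and 14.6, 20.5 and 59.1 CPM in TREM-1- libraries. Several of the 10 genes are also used by neutrophils, macrophages or T helper 2 cells, and the part of such cells in the results below was not tested. In bulk samples, fewer cells of a type and less RNA per cell cannot be told apart.

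**Figure D1:**
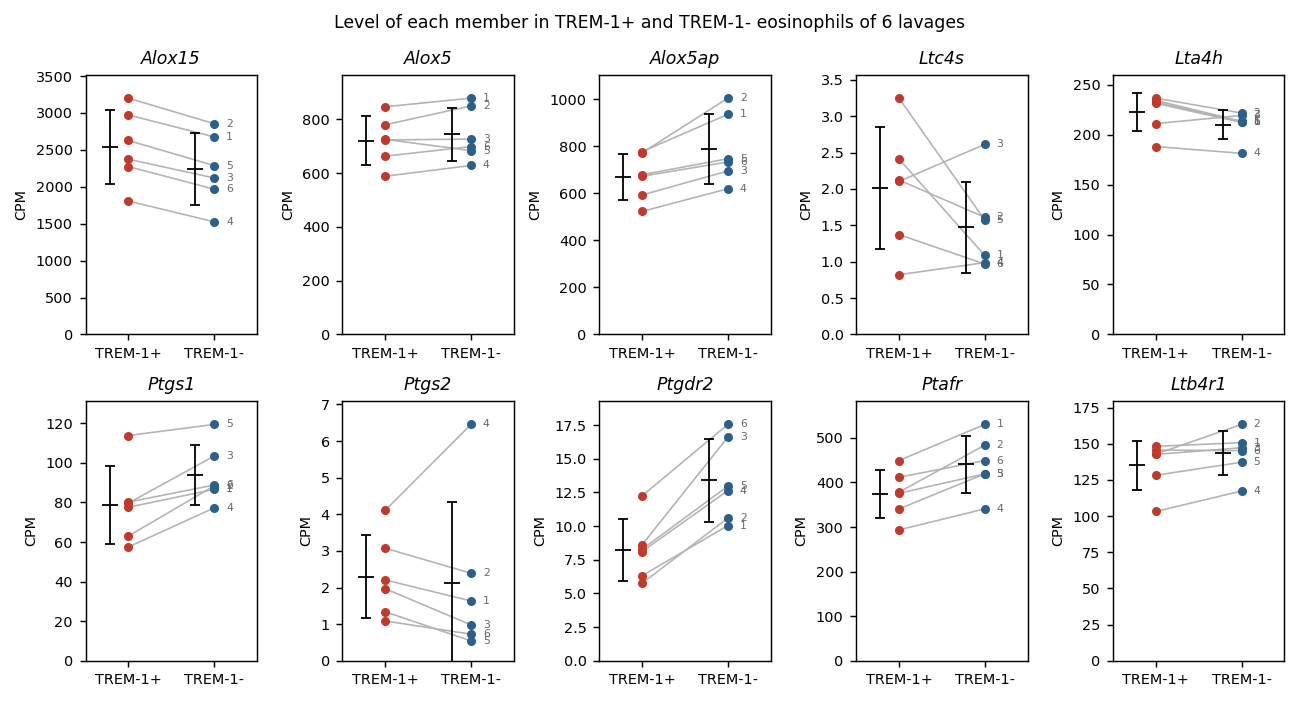
Level of each of the 10 genes (y axis, CPM from 0) in the 6 TREM-1+ libraries (red, left) and the 6 TREM-1- libraries (blue, right). Grey lines join the fractions of 1 lavage, numbered at the right, and black bars give the mean ± SD. Lines of Alox15 fall to the right in every lavage, those of Alox5ap, Ptgs1, Ptgdr2 and Ptafr climb in every lavage, and the ranges of the fractions overlap in all 10 panels.

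Levels differed widely between the 10 genes once divided by transcript length. Alox15 stood first at 992 ± 206 CPM per kb over the 12 libraries (SD), and it ranked 18th of 14616 genes with a known length. Next in CPM per kb came Alox5ap (583 ± 109), Alox5 (260 ± 32.2) and then Ptafr (112 ± 18.2), Lta4h (107 ± 8.61) and Ltb4r1 (99.9 ± 11.6). Ptgs1 followed at 30.1 ± 6.46 CPM per kb, and Ptgdr2 (4.09 ± 1.42), Ltc4s (2.44 ± 1.06) and Ptgs2 (0.496 ± 0.379) were lowest. The order of Alox15, Alox5ap and Alox5 held in 12 of 12 libraries. Ptafr was above Lta4h in 7 of 12 libraries. Lta4h and Ltb4r1 (10 of 12) and Ptgdr2 and Ltc4s (9 of 12) also changed places. The changes of place were not spread evenly over the fractions. Ptafr averaged 103 ± 14.9 CPM per kb in TREM-1+ and 121 ± 17.7 in TREM-1- libraries (SD, n = 6 each). Lta4h averaged 110 ± 9.44 and 103 ± 7.2 CPM per kb in the same order. Ltb4r1 was above Lta4h only in TREM-1- libraries, and Ltc4s was above Ptgdr2 only in TREM-1+ libraries. Lengths are those of the longest protein-coding GENCODE vM21 transcript, which may differ from the authors' annotation.

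Alox15 encodes the leukocyte lipoxygenase that in mice makes both 12- and 15-hydroxylated products of arachidonic acid. Over lavages 1 to 6 in order, its level was 2973, 3200, 2373, 1807, 2627 and 2274 CPM in TREM-1+ libraries. The TREM-1- partners held 2676, 2855, 2120, 1526, 2288 and 1968 CPM. Every TREM-1+ library was above its partner, lavage 4 was lowest and lavage 2 highest in both fractions, and the ranges overlapped. This gave a log2 fold change of 0.19 ± 0.03 (SE; edgeR, adjusted p = 5.17e-06), and the paired log2 differences lay between 0.15 and 0.24. Its paired differences were the most even of the 10 genes, with an SD of 0.035 on the log2 scale, against an SD between lavages of 0.30 in TREM-1+ and 0.33 in TREM-1- libraries. The fold change was 0.18 in lavages 1 and 2 alone and 0.20 in lavages 3 to 6 alone.

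Alox5ap encodes FLAP, the membrane protein that presents arachidonic acid to 5-lipoxygenase. Its levels were 523 to 778 CPM in TREM-1+ libraries (median 676) and 620 to 1005 CPM in TREM-1- libraries (median 741). The TREM-1+ library was lower in 6 of 6 lavages, most in lavage 2 and least in lavage 6, and the ranges overlapped. That is a log2 fold change of -0.23 ± 0.03 (SE; edgeR, adjusted p = 6.88e-06). Alox5, the 5-lipoxygenase gene that starts leukotriene synthesis, had 589 to 847 CPM in TREM-1+ libraries (median 725) and 629 to 879 CPM in TREM-1- libraries (median 713). It was lower in TREM-1+ in 5 of 6 lavages and higher in lavage 5. The log2 fold change of -0.04 ± 0.03 (SE) was not called (edgeR adjusted p = 0.508), with a 95% interval of -0.11 to 0.02.

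Ratios within a library do not depend on how libraries are scaled. For each count of Alox5 there were 3.07 to 4.10 counts of Alox15 in TREM-1+ libraries and 2.43 to 3.36 in TREM-1- libraries, higher in TREM-1+ in 6 of 6 lavages. The ratio of Alox5ap to Alox5 was 0.820 to 1.01 in TREM-1+ and 0.956 to 1.18 in TREM-1- libraries, lower in 6 of 6. The ratio of Alox15 to Alox5ap, 3.38 to 4.14 in TREM-1+ and 2.46 to 3.06 in TREM-1- libraries, did not overlap between the fractions. The last ratio sets the gene called higher over one called lower and so restates those calls. These ratios are a description with no test.

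The leukotriene synthases make the active mediators from leukotriene A4, the product of 5-lipoxygenase. Lta4h, which encodes the hydrolase that makes leukotriene B4, had 188 to 236 CPM in TREM-1+ libraries (median 232) and 181 to 222 CPM in TREM-1- libraries (median 213). It was higher in TREM-1+ in 5 of 6 lavages, lavage 3 being the exception, and lavage 4 was lowest in both fractions. The log2 fold change of 0.08 ± 0.04 (SE) was not called (edgeR adjusted p = 0.184), with a 95% interval of 0.01 to 0.15 that is not adjusted for the number of genes. With library totals alone as the scaling, which put the median of all genes at 0.13, it was called higher (0.21, adjusted p = 0.00234).

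Ltc4s encodes the synthase of leukotriene C4, the parent of the cysteinyl leukotrienes. It was barely detected, with 8 to 51 counts per library in TREM-1+ and 15 to 48 in TREM-1-, or 0.821 to 3.25 CPM (median 2.11) in TREM-1+ and 0.969 to 2.61 CPM (median 1.33) in TREM-1-. TREM-1+ was higher in 4 of 6 lavages and lower in lavages 3 and 4. In edgeR the log2 fold change of 0.45 ± 0.31 (SE) was not called (adjusted p = 0.472), with a 95% interval of -0.17 to 1.08.

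Ptgs1 encodes cyclooxygenase-1, the constitutive enzyme that makes prostaglandin H2. Its levels were 57.5 to 114 CPM in TREM-1+ libraries (median 78.6) and 77.2 to 119 CPM in TREM-1- libraries (median 88.6). It was lower in TREM-1+ in 6 of 6 lavages, by paired log2 differences that ran from -0.07 in lavage 5, the lavage with the most Ptgs1 in both fractions, to -0.49 in lavage 2. In edgeR the log2 fold change was -0.27 ± 0.05 (SE, adjusted p = 0.000403). For each count of Alox5 there were 0.0807 to 0.157 counts of Ptgs1 in TREM-1+ and 0.0985 to 0.175 in TREM-1- libraries, lower in TREM-1+ in 6 of 6 lavages.

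Ptgs2 encodes cyclooxygenase-2, the form induced by inflammatory stimuli. It had 19 to 55 counts per library in TREM-1+ and 10 to 98 in TREM-1-, or 1.09 to 4.11 CPM (median 2.09) in TREM-1+ and 0.543 to 6.45 CPM (median 1.31) in TREM-1-. TREM-1+ was higher in 5 of 6 lavages, and lavage 4, whose TREM-1- library held 6.45 CPM, went the other way. The log2 fold change of 0.43 ± 0.29 (SE) was not called (edgeR adjusted p = 0.463), with a 95% interval of -0.16 to 1.02. Without lavage 4 it was 0.70 and still not called.

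Ptgdr2 encodes CRTH2, also called DP2, a chemoattractant receptor for prostaglandin D2 on eosinophils, basophils and T helper 2 cells. In the order of lavages 1 to 6, TREM-1+ levels were 6.31, 5.76, 8.62, 8.11, 8.28 and 12.2 CPM. Their TREM-1- partners had 10.04, 10.6, 16.6, 12.6, 13.0 and 17.6 CPM. Every TREM-1+ library was below its partner, and the TREM-1+ library of lavage 6 lay above the TREM-1- libraries of lavages 1 and 2, so the ranges overlapped. In edgeR the log2 fold change was -0.72 ± 0.12 (SE, adjusted p = 3.6e-05), the furthest from 0 of the 10 genes, on 79 to 214 counts per TREM-1+ library and 192 to 305 per TREM-1- library.

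An exon of Ptgdr2 overlaps an exon of Ccdc86 on the opposite strand by 1031 bases, and the sources used here do not say whether the counting used strand. Reads of the 2 genes may therefore not be separated. Shorter exon overlaps on the opposite strand exist for Alox5ap (107 bases), Ptgs1 (148 bases) and Ltc4s (186 bases). Among the called pathway genes described below, Lpcat2, Pla2g7 and Cyp4f18 also have such overlaps. The same limit applies to these genes. Ccdc86 averaged 18.8 ± 4.81 CPM in TREM-1+ against 21.7 ± 3.96 CPM in TREM-1- libraries (SD, n = 6 each). Its log2 fold change of -0.22 ± 0.09 (SE) was not called (edgeR adjusted p = 0.177), and it was lower in 5 of 6 lavages. Ptgdr2 also marks T helper 2 cells and basophils. Of the T cell and innate lymphoid markers 7 of 10 were higher in TREM-1+ libraries. Of the 5 mast cell and basophil markers tested, Gata2, which eosinophils also express, averaged 11.7 ± 3.22 CPM in TREM-1+ against 20.0 ± 9.94 CPM in TREM-1- libraries (SD, n = 6 each) and was lower in 6 of 6 lavages (edgeR log2 fold change -0.68, adjusted p = 0.000105). Kit was higher (0.30, adjusted p = 0.000818). Ms4a2 (-0.17), Cpa3 (0.21) and Hdc (0.10) were not called. Below the filter, Mcpt8, Fcer1a and Cma1 averaged 0.575, 0.419 and 0.0679 CPM in TREM-1+ against 0.278, 0.480 and 0.128 CPM in TREM-1- libraries. The part of these cells in the Ptgdr2 result was not tested.

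Ptafr encodes the receptor for PAF. Its levels were 293 to 449 CPM in TREM-1+ libraries (median 377) and 341 to 530 CPM in TREM-1- libraries (median 434). It was lower in TREM-1+ in 6 of 6 lavages, most in lavage 2 and least in lavage 6, as Alox5ap was. It changed by -0.23 ± 0.03 on the log2 scale (SE; edgeR, adjusted p = 8.54e-06). Ltb4r1, the gene for the high-affinity leukotriene B4 receptor BLT1, had 103 to 148 CPM in TREM-1+ libraries (median 143) and 117 to 163 CPM in TREM-1- libraries (median 146). It was lower in 5 of 6 lavages and all but equal in lavage 6. The log2 fold change of -0.09 ± 0.04 (SE) was not called (edgeR adjusted p = 0.194), with a 95% interval of -0.17 to -0.01 that is not adjusted for the number of genes.

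**Figure D2:**
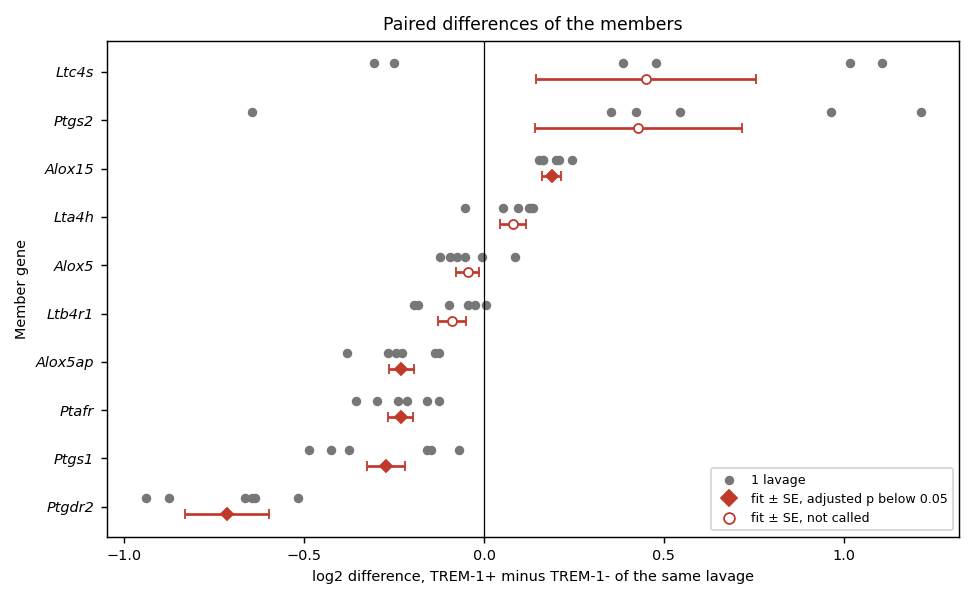
Log2 difference between TREM-1+ and TREM-1- libraries of the same lavage (x axis) for each of the 10 genes (y axis). Grey points are the 6 lavages, and red symbols are the edgeR log2 fold change ± SE, filled where called. The points of Alox15 lie in a narrow band above 0, those of Ptgdr2 between -0.94 and -0.52, and those of Ltc4s and Ptgs2 spread over both sides of 0.

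An exact two-sided permutation test that flips the signs of paired differences, unadjusted over the 10 genes, gave p = 0.0312 for Alox15, Alox5ap, Ptgs1, Ptgdr2 and Ptafr, which is the minimum with 64 patterns. The exact permutation p was 0.0625 for Ltb4r1, 0.0938 for Lta4h, 0.156 for Ptgs2, 0.188 for Ltc4s and 0.219 for Alox5. Scaling mattered for the small changes and for the counts of pairs. Scaled by library totals alone, Alox5ap and Ptafr were lower in 5 of 6 lavages, and Alox5 was higher in 6 of 6. With library totals alone Alox15 (log2 fold change 0.32) and Ptgdr2 (-0.59) were still called. Under that scaling Alox5ap (-0.10), Ptgs1 (-0.15) and Ptafr (-0.10) stayed below 0 without being called, and Alox5 (0.08) and Ltb4r1 (0.04) turned above 0. That scaling put the median of all genes at 0.13 and moved the fold changes of these genes up by about as much. Taking that median off returns the falls given above by construction. Which scaling is right was not tested.

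**Figure D3:**
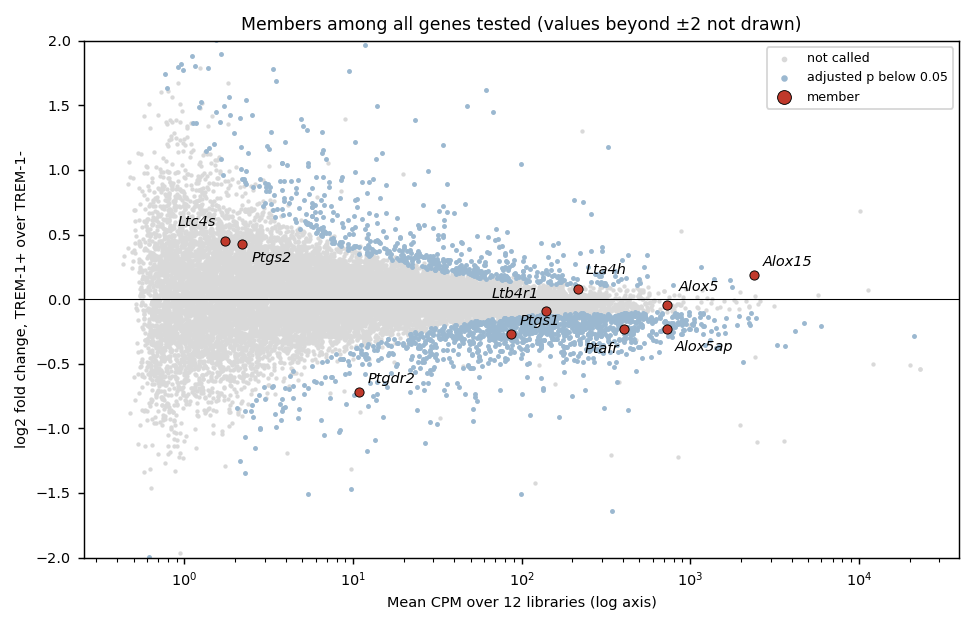
Log2 fold change of TREM-1+ over TREM-1- (y axis) against mean CPM over 12 libraries (x axis, log scale) for the genes tested, with values beyond ±2 not drawn. Grey genes were not called, blue genes were called, and the 10 named genes are red. Alox15 lies just above 0 at 2391 CPM, Ptgdr2 lies among the called genes below 0 at 10.8 CPM, and Ltc4s and Ptgs2 sit in the wide cloud of low genes.

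Promoter sequences are shown for both cyclooxygenase genes, 1 called lower and 1 inducible and nearly silent here, and for the receptor genes that fell, so that their starts can be compared. They are RefSeq sequences of build GRCm38.p6, from 250 bases before to 50 after the annotated start, 5′ to 3′ on the gene's strand. The table held a promoter for 8 of the 10 genes, and Alox15 and Alox5ap were not among them. Ptgs1 lies at chr2:36230176-36230475 (plus strand), Ptgs2 at chr1:150099781-150100080 (plus), Ptgdr2 at chr19:10936910-10937209 (plus) and Ptafr at chr4:132563817-132564116 (plus). Capitals mark matches, on either strand, to any of 7 motifs. GATA was searched as AGATAA and STAT was searched as TTCNNNGAA. AP-1 was searched as TGANTCA and CRE was searched as TGACG. The E-box was searched as CACGTG and the GC box was searched as GGGCGG, beside an interferon response element.
Ptgs1: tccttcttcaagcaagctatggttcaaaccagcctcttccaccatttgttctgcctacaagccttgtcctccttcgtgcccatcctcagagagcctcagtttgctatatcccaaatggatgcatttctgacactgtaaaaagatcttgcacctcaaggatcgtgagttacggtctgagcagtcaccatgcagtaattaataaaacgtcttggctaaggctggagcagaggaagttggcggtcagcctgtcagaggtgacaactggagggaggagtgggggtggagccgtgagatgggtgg
Ptgs2: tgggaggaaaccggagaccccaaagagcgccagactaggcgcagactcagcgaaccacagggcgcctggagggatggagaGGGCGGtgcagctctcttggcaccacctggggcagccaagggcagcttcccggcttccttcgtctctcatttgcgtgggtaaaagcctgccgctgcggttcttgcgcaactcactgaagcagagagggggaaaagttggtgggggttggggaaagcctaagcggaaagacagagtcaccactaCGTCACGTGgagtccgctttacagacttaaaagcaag
Ptgdr2: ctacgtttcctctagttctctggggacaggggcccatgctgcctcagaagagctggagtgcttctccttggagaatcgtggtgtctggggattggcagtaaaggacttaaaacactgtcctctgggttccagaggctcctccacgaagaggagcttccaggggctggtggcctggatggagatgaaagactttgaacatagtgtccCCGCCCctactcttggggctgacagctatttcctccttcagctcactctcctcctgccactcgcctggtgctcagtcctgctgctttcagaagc
Ptafr: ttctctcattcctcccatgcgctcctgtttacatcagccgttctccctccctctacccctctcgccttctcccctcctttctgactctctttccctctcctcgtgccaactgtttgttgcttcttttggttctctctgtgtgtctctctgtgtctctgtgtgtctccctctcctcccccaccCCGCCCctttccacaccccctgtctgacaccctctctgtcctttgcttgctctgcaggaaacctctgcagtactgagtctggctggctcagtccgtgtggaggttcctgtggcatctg

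A GC box stood 44 bases before the start in Ptgdr2, 68 before it in Ptafr and 170 before it in Ptgs2, and 35.7% of the 32851 promoters in the table hold one. Ptgs2 also held a CRE match at base 14 after the start and an E-box at base 17, which share letters. CRE matches occur in 20.8% and E-box matches in 7.15% of all promoters. None of the 7 motifs was found in the Ptgs1 window. Of the other motifs, GATA occurs in 11.2%, STAT in 8.3%, interferon response in 3.44% and AP-1 in 7.81% of promoters. These matches describe letters in a window, and binding to them was not measured.

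Other genes of the pathway were read from a list of 63, of which 43 passed the filter on low counts. In TREM-1+ eosinophils 8 of them were lower and 2 higher, so that 10 of 43 (23.3%) were called against 9.82% of all genes, with a median log2 fold change of -0.01. With library totals alone the split was 3 lower and 5 higher. Of the 20 that did not pass, 5 (Pla2g5, Alox12b, Dpep3, Ptgis and Hpgd) had 0 counts in every library.

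Of 8 genes of PAF synthesis and breakdown tested, 2 were lower, 1 was higher and 5 were not called, against 9.82% called of all genes. Lpcat2 and Lpcat1 encode acyltransferases that can acetylate lyso-PAF to PAF, and Pla2g7 encodes the plasma PAF acetylhydrolase that inactivates it. Lpcat2 averaged 324 ± 28.7 CPM in TREM-1+ against 388 ± 26.7 CPM in TREM-1- eosinophils (log2 fold change -0.26 ± 0.04, SE, edgeR adjusted p = 1.75e-06). Its ranges narrowly missed each other, with at most 355 CPM in TREM-1+ and at least 359 CPM in TREM-1- libraries. Of all genes tested, 0.951% had no overlap. With library totals alone its log2 fold change was -0.13 (edgeR adjusted p = 0.0348). Lpcat1, at a far lower level, averaged 26.2 ± 4.16 CPM in TREM-1+ against 19.3 ± 3.423 CPM in TREM-1- eosinophils (0.44 ± 0.08, adjusted p = 0.000202). Pla2g7 averaged 692 ± 102 CPM in TREM-1+ against 817 ± 113 CPM in TREM-1- eosinophils (-0.24 ± 0.04, adjusted p = 0.000148). Each of these 3 genes moved 1 way in 6 of 6 lavages (SD, n = 6 each), and Pla2g7 was not called with library totals alone (-0.11). The 5 not called were Lpcat4 (log2 fold change 0.05), Pafah1b1 (-0.03), Pafah1b2 (-0.01), Pafah1b3 (-0.06) and Pafah2 (0.60 ± 0.34, SE).

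In the leukotriene arm, 6 genes of leukotriene conversion, export and breakdown were tested, with 1 higher, 1 lower and 4 not called. Of 4 other leukotriene and oxylipin receptors tested, 1 was lower and 3 were not called. Of 5 other lipoxygenases or 5-lipoxygenase partners tested, 2 were lower and 3 were not called. Of all genes, 9.82% were called. Ltb4r2, the gene for the low-affinity leukotriene B4 receptor BLT2, averaged 63.1 ± 7.27 CPM in TREM-1+ against 78.0 ± 9.95 CPM in TREM-1- eosinophils. It changed by -0.30 ± 0.05 on the log2 scale (SE; edgeR, adjusted p = 4.12e-05), lower in 6 of 6 lavages, while its neighbour Ltb4r1 was not called. The difference between these 2 receptors was not tested. Cyp4f18, which in mice encodes a hydroxylase of leukotriene B4, averaged 1468 ± 105 CPM in TREM-1+ against 1692 ± 127 CPM in TREM-1- eosinophils (-0.20 ± 0.03, adjusted p = 6.03e-06). Cotl1, which encodes a protein that binds actin and 5-lipoxygenase, averaged 2105 ± 341 CPM in TREM-1+ against 2429 ± 441 CPM in TREM-1- eosinophils (-0.20 ± 0.03, adjusted p = 2.11e-05). Both were lower in 6 of 6 lavages, and neither was called with library totals alone (-0.08 each). Mgst1, a microsomal glutathione transferase of the same protein family as Ltc4s and Alox5ap, averaged 92.0 ± 18.0 CPM in TREM-1+ against 76.9 ± 10.7 CPM in TREM-1- eosinophils (0.25 ± 0.05, adjusted p = 0.00093). Its paired log2 difference was 0.002 in lavage 4 and 0.46 in lavage 3, and lavages 3 to 6 by themselves gave no call (0.22, adjusted p = 0.0602).

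Gpx1 and Gpx4 encode glutathione peroxidases, which reduce lipid hydroperoxides such as those lipoxygenases make. Gpx1 averaged 394 ± 65.5 CPM in TREM-1+ against 484 ± 76.3 CPM in TREM-1- eosinophils (log2 fold change -0.30 ± 0.04, SE, edgeR adjusted p = 3.31e-07, lower in 6 of 6 lavages). Gpx4 averaged 125 ± 16.4 CPM in TREM-1+ against 147 ± 17.0 CPM in TREM-1- eosinophils (-0.24 ± 0.06, adjusted p = 0.0206) and was higher in lavage 5. Alox12e, a further 12-lipoxygenase gene, averaged 58.9 ± 9.12 CPM in TREM-1+ against 66.1 ± 8.16 CPM in TREM-1- eosinophils (-0.17 ± 0.05, adjusted p = 0.0397). The Gpx4 call was lost without lavage 1, 2, 3 or 4 (adjusted p 0.0519 to 0.0695) and the Alox12e call without lavage 2, 3, 4, 5 or 6 (0.0566 to 0.168). Neither was called with library totals alone (Gpx4 -0.12, Alox12e -0.04), in lavages 1 and 2 alone (Alox12e), in lavages 3 to 6 alone or without lavages 3 and 4.

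With groups of 3 to 5 genes and 9.82% of all genes called, a count of 0 in a group is near the background. Of 5 terminal prostanoid synthases tested, edgeR called 0, with 0 at an unadjusted p below 0.05, and DESeq2 and limma-voom also called 0. Of 5 phospholipases A2 and of 5 prostanoid receptors tested, edgeR, DESeq2 and limma-voom each called 0, with 1 of each group at an unadjusted p below 0.05 in edgeR. Of the 3 tested genes of prostaglandin transport and breakdown each tool called 0, with 0 at an unadjusted p below 0.05 in edgeR. Tbxas1, the thromboxane synthase gene, averaged 246 ± 25.4 CPM in TREM-1+ against 247 ± 24.0 CPM in TREM-1- eosinophils, with a 95% interval of the log2 fold change of -0.07 to 0.06. Pla2g4a, the cytosolic phospholipase A2 that supplies both arms, averaged 117 ± 8.39 CPM in TREM-1+ against 118 ± 10.2 CPM in TREM-1- eosinophils, with an interval of -0.09 to 0.07. Intervals were as narrow for Ptges3 (-0.07 to 0.10), a prostaglandin E synthase gene, and Pafah1b1 (-0.10 to 0.05), a subunit of the intracellular PAF acetylhydrolase. Abcc1, the exporter of leukotriene C4, had an interval of 0.02 to 0.22 and was not called (edgeR adjusted p = 0.133). Hpgds, the haematopoietic prostaglandin D synthase gene, averaged only 3.91 ± 0.73 CPM in TREM-1+ against 3.24 ± 0.98 CPM in TREM-1- eosinophils (log2 fold change 0.31 ± 0.21, not called).

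**Figure D4:**
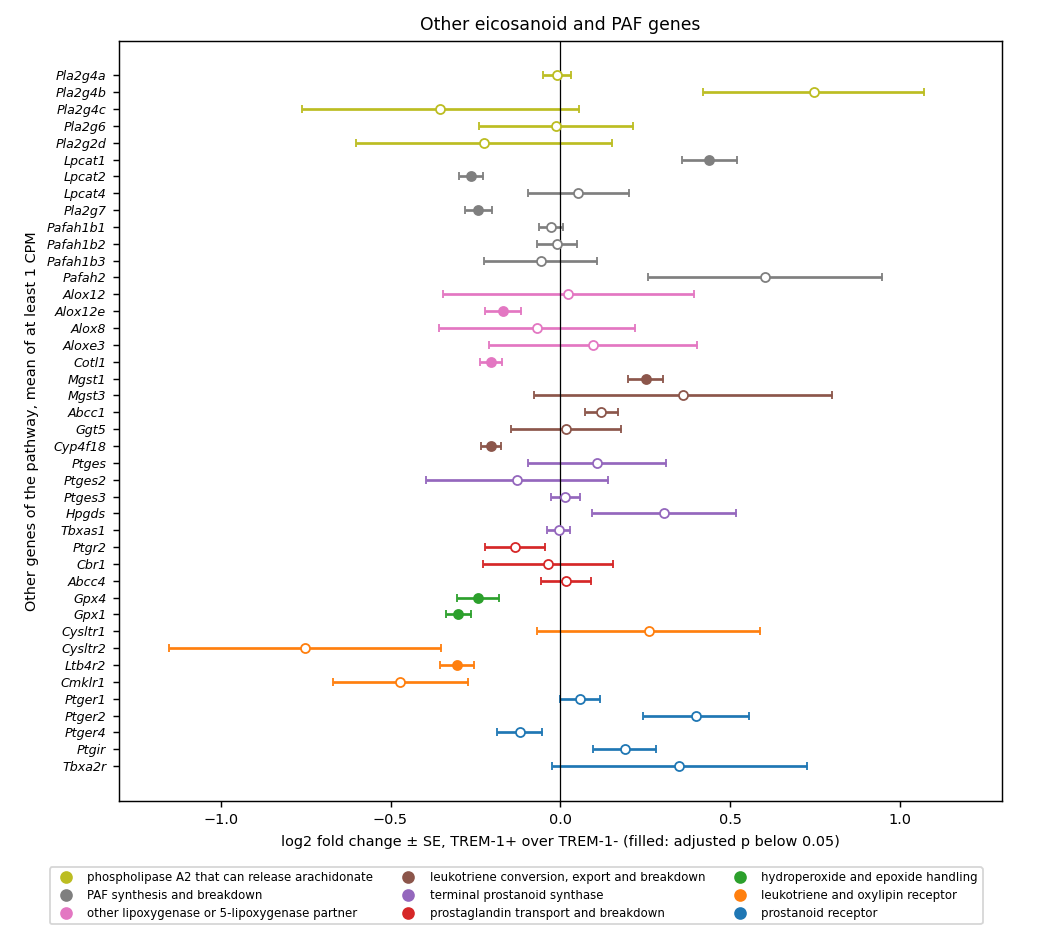
Log2 fold change ± SE of TREM-1+ over TREM-1- eosinophils (x axis) for the other pathway genes with a mean of at least 1 CPM (y axis), coloured by role. Filled symbols are genes with an edgeR adjusted p below 0.05. Of the 10 filled symbols, Lpcat1 and Mgst1 lie right of 0 and the other 8 left of it.

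Across the 12 libraries, the profile of Alox15 was most like those of Aldh3a2, Kctd20 and Lin28a. The measure was the root-mean-square distance between centred log2 CPM profiles, taken over 10966 genes of at least 5 CPM, and it was 0.052 for Aldh3a2, a fatty aldehyde dehydrogenase gene, 0.054 for Kctd20 and 0.066 for Lin28a. These genes follow Alox15 over the lavages, in which it was high in lavages 1 and 2 and low in lavage 4, as well as between the fractions. Their log2 fold changes were 0.17, 0.25 and 0.17, against 0.19 for Alox15. The distance covers both fractions, so fold changes near that of Alox15 follow from how these genes were chosen.

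**Figure D5:**
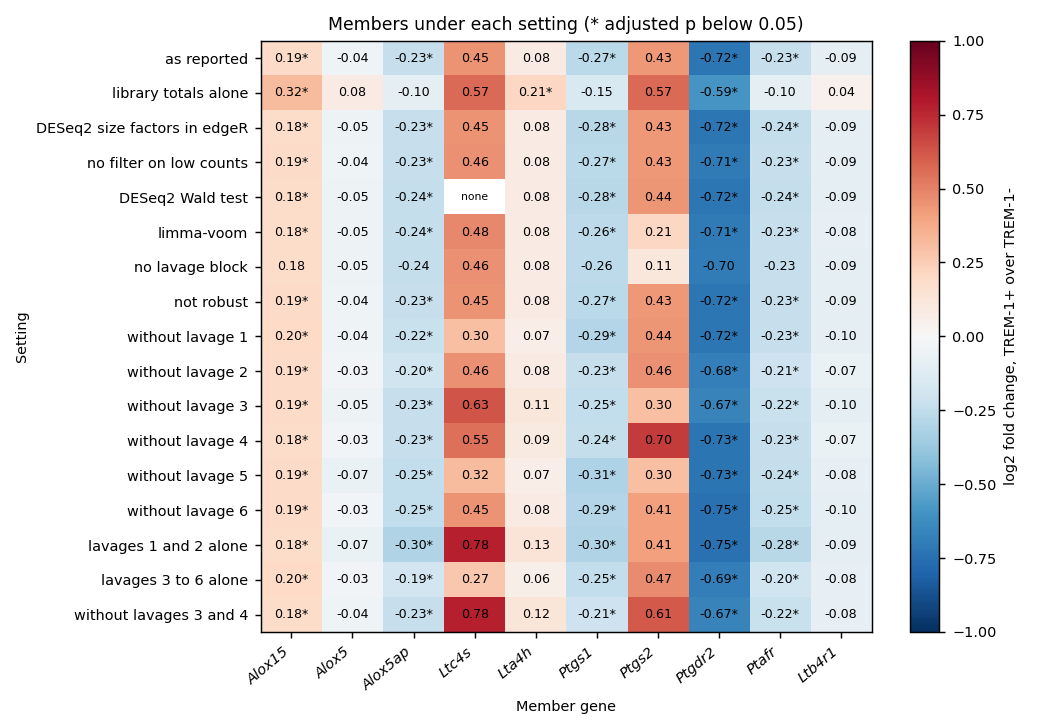
Log2 fold change of TREM-1+ over TREM-1- (colour and printed value) for each of the 10 genes (columns) under each setting (rows), with an asterisk where the adjusted p was below 0.05. The same 5 columns carry asterisks in every row but those of library totals alone and of no lavage block, and DESeq2 gave no adjusted p for Ltc4s.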

How the data were processed

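RNA was measured by stranded, ribosome-depleted RNA-seq (100 bp paired ends) in 12 libraries, per the labels' protocols. The authors deposited an estimated count per gene and library and a second table of log2 CPM. Build GRCm39 and the tools kallisto 0.45.0, edgeR 3.42.4 and R 4.3.0 are listed, without roles, per the submitters' processing notes. All deposited estimated counts were already whole, so rounding them had no effect. Recomputed log2 CPM (TMM, prior count 1) matched the deposited log2 values of 17934 genes to within 5e-09.

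Counts of all genes were fitted with edgeR 4.0.16 in R 4.3.3 (TMM, filterByExpr, minimum count 10, minimum total 15, robust quasi-likelihood F test) with lavage as a block, coded TREM-1+ over TREM-1-. Standard errors came from the F statistic. The fit was tested on simulated data. DESeq2 1.42.0 and limma 3.58.1 were alternatives. The sources used here do not say how reads shared by close copies were divided, nor whether strand was used.

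That fractions are paired by lavage is stated in the design text. Both libraries of a lavage deviated together from their group means (r 0.127 to 0.502 over genes). Libraries of different lavages were not compared in this way, so these values do not test the pairing. No label states that the lavages are from different mice, and p-values therefore cover only the spread between these samples, which may be technical. Members and lists were chosen with earlier results of these data known. Named genes are Trem1, the members, called pathway genes of at least 1 CPM, the 5 uncalled pathway genes highest per length, and the 3 genes closest to Alox15. Outside that rule, the other uncalled genes of PAF synthesis and breakdown, the pathway genes with 0 counts and single marker genes are also named. Hpgds and the Ccdc86 values were added after the data were seen. Counting error is largest for Ltc4s and Ptgs2, which have the fewest counts.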

Additional observations from a re-analysis of the deposited data

Results flagged for a closer look

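Of 30 groups of 6 values (10 genes in each fraction, and their paired differences), 2 held a value far from the others by Dixon's test, which flags about 1 in 20 groups by chance. Ptgs2 was 6.45 CPM (98 counts) in the TREM-1- library of lavage 4, against 0.543 to 2.39 CPM in the other TREM-1- libraries. That library also held the largest share of Gm26917 counts, 6.87%, against 0.869 to 2.76% in the other 11, and a part of this in the Ptgs2 value was not tested. Lta4h was 181 CPM in the same library, against 212 to 222 CPM in the other TREM-1- libraries.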

How the results depend on the processing

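Over 16 alternatives, 148 of 159 member differences kept their direction and call, 8 lost and 1 gained the call, and 2 changed sign. Leaving out each lavage in turn kept all 5 calls, with log2 fold changes of 0.18 to 0.20 for Alox15, -0.25 to -0.20 for Alox5ap, -0.31 to -0.23 for Ptgs1, -0.75 to -0.67 for Ptgdr2 and -0.25 to -0.21 for Ptafr. With library totals alone 3 members were called, 2 higher and 1 lower: Alox5ap (-0.10), Ptgs1 (-0.15) and Ptafr (-0.10) were lost, Lta4h (0.21) was gained, and Alox5 (0.08) and Ltb4r1 (0.04) changed sign. In the paired differences the same scaling gave -0.10 for Alox5ap, -0.10 for Ptafr, 0.21 for Lta4h, 0.08 for Alox5 and 0.04 for Ltb4r1. Alox5ap and Ptafr were then lower in 5 of 6 lavages (exact permutation p = 0.0938 each). Lta4h and Alox5 were higher in 6 of 6 (exact permutation p = 0.0312 each), and Ltb4r1 in 4 of 6. Alox15, Ptgs1 and Ptgdr2 kept their direction in 6 of 6. The split of all genes became 1880 higher and 376 lower, against 568 and 1229. The series' design pairs the fractions. With no replicate block, edgeR called 0 members (1 at an unadjusted p below 0.05), 0 other pathway genes (8 unadjusted) and 83 genes in all, with Alox15 at 0.18, Alox5ap at -0.24, Ptgs1 at -0.26, Ptgdr2 at -0.70 and Ptafr at -0.23; this fit puts the spread between lavages into the error. Lavages 3 to 6 alone gave 1168 called genes. Lavages 1 and 2 alone, with fewer samples still, gave 1567. Those 2 lavages lay closest to each other in counts, and the reason for the difference between these numbers was not tested. DESeq2 gave no adjusted p for Ltc4s. Low counts and the spread between lavages limit what can be said of Ltc4s and Ptgs2.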
